A study of Mus musculus with 6 samples.

Results

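A set of 9 genes for transcription factors of the interferon regulatory factor (IRF) and signal transducer and activator of transcription (STAT) families were followed in cochlea of young and old mice: Irf1, Irf3, Irf5, Irf7, Irf8, Irf9, Stat2, Stat3 and Stat6. They were taken by name, as factors of interferon signalling and of myeloid identity, and all 9 were found among 25823 genes, of which 19649 had enough signal to be tested. The samples came from C57BL/6 mice, a strain that loses hearing early in life, with 1-month-old mice as the young group and 12-month-old mice as the old group. Each group had 3 samples, each a pool of tissue from 3 mice, so that differences between the mice of a pool were not seen. Cochlear basilar membranes were dissected, and the labels name no treatment and do not give the sex of the mice. RNA was sequenced as directional libraries, and the level of each gene was its FPKM (sequenced fragments scaled for transcript length and for the depth of the library), summed over its transcripts.

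IRF proteins bind short repeats built around GAAA in DNA, and STAT proteins bind a palindrome that begins with TTC and ends with GAA. IRF3, IRF5 and IRF7 lie dormant in the cytoplasm until receptors for foreign or misplaced nucleic acid activate them, and they then switch on type I interferon genes. Secreted interferon acts through Janus kinases on STAT proteins, and STAT2 joins IRF9 in the complex ISGF3 to turn on interferon-stimulated genes, among them Irf7 itself. STAT3 responds to the interleukin-6 family of cytokines, STAT6 responds to interleukin-4 and interleukin-13, and IRF8 helps to set the identity of macrophages, microglia and dendritic cells. Resident macrophages are a regular cell type of the cochlea.

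The sequences that bear on these factors are the letters their families bind, so the 250 bases before the start site were examined in the RefSeq promoter table of build GRCm38.p6, which held windows for all 9 genes. Irf1, Irf8 and Stat2 are shown because they held a match, and Irf7 because it had the largest difference between the age groups. Each sequence runs 5′ to 3′ on the gene's own strand, and capitals mark matches, searched on both strands. The core of the interferon-stimulated response element (ISRE) was read as GAAA, any 2 bases and GAAA. The gamma-activated site (GAS) was read as TTC, any 3 bases and GAA, and the ETS-IRF composite element as GGAA, any 2 bases and GAAA.
Irf1, chr11:53769764-53770013, plus strand: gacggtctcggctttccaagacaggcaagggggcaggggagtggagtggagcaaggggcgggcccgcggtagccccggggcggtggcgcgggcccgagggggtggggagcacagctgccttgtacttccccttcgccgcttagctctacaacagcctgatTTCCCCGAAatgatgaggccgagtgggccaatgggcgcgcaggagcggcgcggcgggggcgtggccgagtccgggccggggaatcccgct
Irf7, chr7:141266425-141266674, minus strand: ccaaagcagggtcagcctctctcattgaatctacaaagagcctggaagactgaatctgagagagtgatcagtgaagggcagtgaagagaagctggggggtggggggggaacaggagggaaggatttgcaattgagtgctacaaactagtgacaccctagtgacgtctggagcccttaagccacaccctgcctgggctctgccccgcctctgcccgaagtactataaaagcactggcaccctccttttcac
Irf8, chr8:120736108-120736357, plus strand: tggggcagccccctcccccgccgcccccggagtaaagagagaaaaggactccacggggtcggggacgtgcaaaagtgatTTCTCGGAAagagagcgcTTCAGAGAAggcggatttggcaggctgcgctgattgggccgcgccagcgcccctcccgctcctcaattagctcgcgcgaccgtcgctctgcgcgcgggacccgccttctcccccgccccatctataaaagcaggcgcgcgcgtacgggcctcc
Stat2, chr10:128270248-128270497, plus strand: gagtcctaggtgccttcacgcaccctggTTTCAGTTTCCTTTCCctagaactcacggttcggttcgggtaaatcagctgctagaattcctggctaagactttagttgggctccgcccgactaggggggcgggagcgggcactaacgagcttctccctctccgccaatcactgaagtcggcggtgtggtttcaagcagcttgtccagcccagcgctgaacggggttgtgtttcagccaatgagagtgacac

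In Irf1 a GAS match began 90 bases before the start site. Irf8 held 2 GAS matches, 171 and 153 bases before the start. The capitals of Stat2 join an ISRE match that began 222 bases before the start, on the reverse strand, with an ETS-IRF match at 216 bases that overlaps it. Over the whole windows of 300 bases, which also take in 50 bases after the start, 1 of the 9 genes held an ISRE match, 2 held a GAS match and 1 held an ETS-IRF match. Among 27025 genes with a window, 3.99% held an ISRE match, 9.55% a GAS match and 3.16% an ETS-IRF match. For Irf7 and the other genes the absence of a match says only that these letters are not in this window.

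Among the 9 genes, Irf5, Irf7, Irf9 and Stat3 were higher in old mice (4 of 9, limma on log2(FPKM + 0.1), Benjamini-Hochberg adjusted p below 0.05 over all genes tested) and 0 were lower. At this threshold 5.41% of all genes were higher and 3.68% were lower. With no adjustment of p, 7 of the 9 passed 0.05 upward and 0 downward, against 14.5% and 13.0% of all genes. For 7 of the 9 genes the lowest old sample exceeded the highest young sample, against 17.5% of all genes, and the groups overlapped for Irf3 and Stat6. The median log2 difference, old minus young, was 0.88 over the 9 genes and 0.01 over all genes tested. The number called depended on single samples. It was 3, 2 and 4 when young replicate 1, 2 or 3 was left out, and 4, 0 and 1 when old replicate 1, 2 or 3 was left out.

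**Figure D1:**
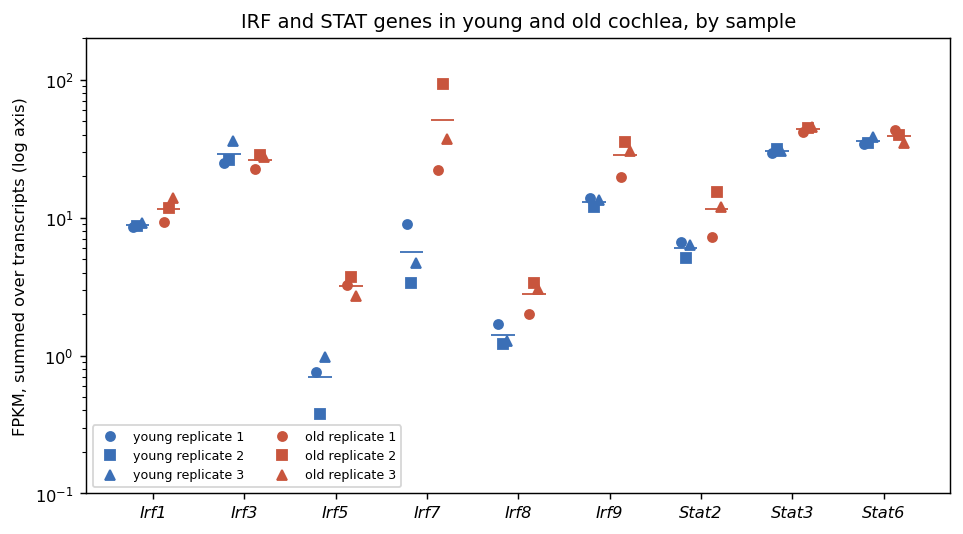
FPKM of the 9 IRF and STAT genes in each sample on a log axis, with young samples in blue, old samples in red, a marker shape for each replicate number and a short line at the mean of each group (n = 3 each). Irf7 runs from 22.3 to 94.0 FPKM in old samples and from 3.37 to 8.98 FPKM in young ones, while the Irf3 and Stat6 points of both groups overlap.

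The plot of FPKM by sample shows which genes were abundant as well as which differed. Since FPKM is set per length of transcript, levels can be ordered between genes. In young cochlea the order of mean FPKM was Stat6, Stat3, Irf3, Irf9, Irf1, Stat2, Irf7, Irf8 and Irf5, and the only neighbours whose sample ranges overlapped were Stat3 with Irf3 and Stat2 with Irf7. In old cochlea Irf7 came first by its mean, followed by Stat3, Stat6, Irf9 and Irf3, and each of these 5 overlapped its neighbour in the order. Irf1 and Stat2 followed and overlapped each other, and Irf5 and Irf8 came last and also overlapped. By mean level, Irf7 stood at percentile 49.5 of the tested genes in young mice and at percentile 91.1 in old mice, and Irf5 moved from percentile 19.3 to percentile 40.1. The first place of Irf7 rested on old replicate 2, without which its old mean was 29.8 FPKM, at percentile 83.9 and below Stat3 (43.7 FPKM) and Stat6 (39.1 FPKM). In bulk tissue a change in the number of cells that express a gene and a change in RNA per cell cannot be told apart.

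The samples were of similar depth, and 1 of them stood apart in composition. The steps between low values gave an estimated 12470000 to 15670000 fragments per sample, with the most in old replicate 2. FPKM values, which are already scaled for depth, summed to between 576487 and 601724 per sample. Young replicate 1 had a neutrophil marker sum of 418.7 FPKM over 8 genes, against 10.96 to 71.9 FPKM in the other 5 samples. Hair cell markers (7 genes) were present in every sample and summed to 116.5 to 205.3 FPKM in young and 66.8 to 90.7 FPKM in old samples. Supporting cell markers (7 genes) summed to 1026 to 1246 FPKM over all samples, and the sums of neuron, Schwann cell, bone and endothelial markers were lower in every old sample than in any young one. The part of these shifts in the results was not tested.

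Irf7, the factor that amplifies type I interferon production and is itself an interferon-stimulated gene, showed the largest difference of the 9. The gene lies at chr7:141262706-141266481 on the minus strand (GRCm38, GENCODE M21). Its level was 8.98, 3.37 and 4.67 FPKM in young replicates 1 to 3 and 22.3, 94.0 and 37.3 FPKM in old replicates 1 to 3. Every old sample was above every young sample, but old replicate 2 stood 4.21 times as high as old replicate 1. The means were 5.67 ± 2.94 FPKM in young and 51.2 ± 37.8 FPKM in old mice (SD, n = 3 each), a log2 difference of 3.01 (SE 0.54) or 8.07-fold (95% interval 3.34 to 19.5, limma, adjusted p = 0.0244). This difference ranked 52 of 19649 genes from the highest. The adjusted p from limma rose to 0.0637 without old replicate 2, where the log2 difference was 2.45. Leaving out old replicate 3 gave 0.0664 and leaving out young replicate 2 gave 0.0778.

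Irf5, an IRF activated downstream of Toll-like receptors and abundant in macrophages and B cells, had the lowest level of the 9 in young cochlea. It lies at chr6:29526625-29541871 on the plus strand. Young replicates 1 to 3 had 0.756, 0.379 and 0.969 FPKM, and old replicates 1 to 3 had 3.22, 3.74 and 2.69 FPKM. The groups were apart, and the highest young sample was below all old samples. Means were 0.701 ± 0.299 and 3.22 ± 0.526 FPKM (SD, n = 3 each), giving a log2 difference of 2.11 (SE 0.33) or 4.33-fold (95% interval 2.52 to 7.45, limma, adjusted p = 0.0194). These levels corresponded to an estimated 9.98 to 23.0 fragments per young sample and 68.9 to 111.9 per old sample, so counting error is largest for this gene. The limma adjusted p passed the threshold with each young sample left out in turn, but was 0.0616, 0.0780 and 0.0537 without old replicates 1, 2 and 3.

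Irf3, the constitutive IRF that acts first after nucleic acid sensing, differed in the opposite direction by less than the spread between samples. It lies at chr7:44997648-45002848 on the plus strand. Levels were 24.9, 26.2 and 36.2 FPKM in young and 22.7, 28.5 and 27.4 FPKM in old replicates 1 to 3. The groups overlapped, with young replicate 3 the highest of the 6. The log2 difference was -0.14 (95% interval -0.51 to 0.23, limma, adjusted p = 0.614). It was 0.030 without young replicate 3 and 0.25 when the most abundant transcript stood for the gene, so that its sign is not settled. On the opposite strand the gene shares 1065 bases with Bcl2l12, which was at 3.86 to 6.68 FPKM.

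Irf9, the DNA-binding subunit of ISGF3, was higher in old mice. It lies at chr14:55603571-55610030 on the plus strand. Levels were 13.9, 11.9 and 13.4 FPKM in young and 19.6, 35.6 and 30.3 FPKM in old replicates 1 to 3. The young samples were close together, and old replicate 1 was the lowest of the old samples yet above all young ones. Means were 13.1 ± 1.04 and 28.5 ± 8.17 FPKM (SD, n = 3 each), with a log2 difference of 1.08 (SE 0.21) or 2.11-fold (95% interval 1.51 to 2.96, limma, adjusted p = 0.0268). The limma adjusted p was 0.0865 and 0.0796 when old replicate 2 or 3 was left out, and 0.0604 and 0.0880 when this was young replicate 1 or 2.

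Stat2, which encodes a subunit of ISGF3, was separated between the groups but did not pass the threshold. It lies at chr10:128270559-128292849 on the plus strand, and its ISRE and ETS-IRF matches are in capitals in the sequence above. Levels were 6.63, 5.11 and 6.29 FPKM in young and 7.29, 15.5 and 11.9 FPKM in old replicates 1 to 3. Old replicate 1 was only slightly above the young samples, whereas old replicate 2 was 2.12 times as high as old replicate 1. The log2 difference was 0.88 (SE 0.26, 95% interval 0.26 to 1.49, limma, adjusted p = 0.0814), and the adjusted p was 0.0447 without old replicate 1.

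Irf1, an early target of interferon gamma, showed a small separation. The gene lies at chr11:53770014-53778374 on the plus strand, and its GAS match is in capitals in the sequence above. Levels were 8.61, 8.66 and 9.10 FPKM in young and 9.25, 11.7 and 13.8 FPKM in old replicates 1 to 3. The lowest old sample was just above the highest young sample. The log2 difference was 0.38 (SE 0.15, 95% interval 0.02 to 0.73), which did not pass the threshold (limma, adjusted p = 0.160).

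Irf8, the myeloid IRF, lies at chr8:120736358-120756694 on the plus strand and carries both GAS matches in capitals above. Levels were 1.70, 1.21 and 1.28 FPKM in young and 1.99, 3.38 and 3.04 FPKM in old replicates 1 to 3. Old replicate 1 was again the lowest old sample, close to young replicate 1, and the groups did not overlap. Means were 1.40 ± 0.266 and 2.80 ± 0.724 FPKM (SD, n = 3 each). The log2 difference of 0.93 (SE 0.26, 95% interval 0.32 to 1.54) did not pass the threshold (limma, adjusted p = 0.0676).

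Stat3, the factor downstream of gp130 cytokine receptors, had the smallest standard error of the 9. It lies at chr11:100885098-100939540 on the minus strand. Levels were 29.3, 31.5 and 30.6 FPKM in young and 42.1, 45.0 and 45.2 FPKM in old replicates 1 to 3. Samples within a group were close, with the highest old sample 1.07 times the lowest, and the groups were far apart relative to this spread. Means were 30.5 ± 1.12 and 44.1 ± 1.74 FPKM (SD, n = 3 each), a log2 difference of 0.53 (SE 0.07) or 1.45-fold (95% interval 1.29 to 1.62, limma, adjusted p = 0.0127). Only without old replicate 2, among the 6 samples left out in turn, did the limma adjusted p exceed the threshold, at 0.0613.

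Stat6, which answers interleukin-4 and interleukin-13, did not differ beyond the spread between samples. It lies at chr10:127642986-127660957 on the plus strand. Levels were 34.3, 34.6 and 38.4 FPKM in young and 43.4, 39.6 and 34.8 FPKM in old replicates 1 to 3. The groups overlapped, and old replicate 1, usually the lowest old sample of these genes, was the highest. The log2 difference was 0.13 (SE 0.10, 95% interval -0.10 to 0.36, limma, adjusted p = 0.438).

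**Figure D2:**
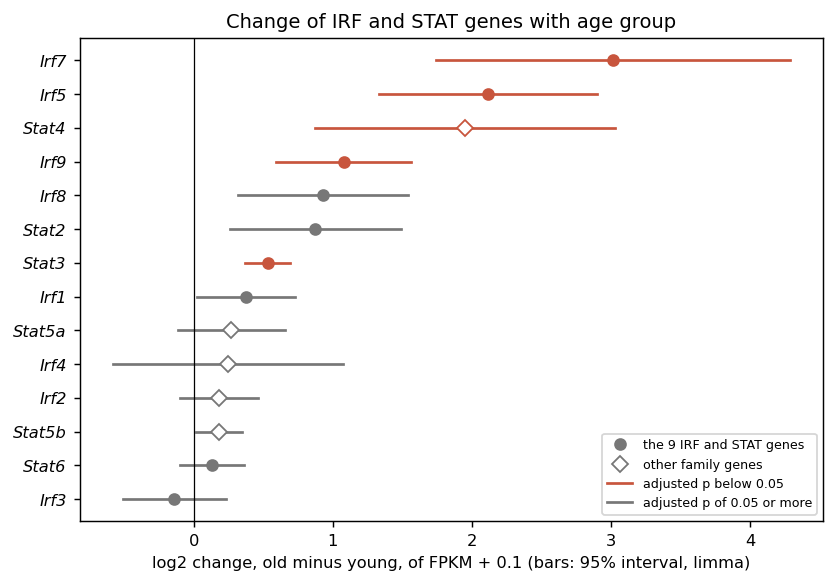
Log2 difference, old minus young, of FPKM + 0.1 for the 9 IRF and STAT genes (filled circles) and 5 further genes of both families (open diamonds), with 95% intervals from limma as bars and red for an adjusted p below 0.05. Irf7 at 3.01 and Irf5 at 2.11 lie farthest to the right, and of the 9 genes Irf3 and Stat6 have intervals that cross 0. Among the further genes some intervals cross 0 as well, such as that of Irf4.

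With 3 samples against 3, a two-sided exact permutation test cannot give a p below 0.1, and it gave 0.1 for each of the 7 separated genes, 0.6 for Irf3 and 0.2 for Stat6. The calls above therefore rest on the spread that limma shares across genes. When limma was run without a trend of the variance on the level, only Irf5 of the 9 passed the threshold, and Irf7 was at an adjusted p of 0.0741, Irf9 at 0.0797 and Stat3 at 0.0515. Without the filter on low values Irf7 was at an adjusted p of 0.0521 and Irf9 at 0.0545 in limma.

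The old samples were not alike. Old replicate 2 was the highest of the 3 for 6 of the 9 genes, and old replicate 1 was the lowest for 7 of the 9. The ratio of the highest to the lowest old sample was 4.21 for Irf7, 2.12 for Stat2, 1.82 for Irf9 and 1.70 for Irf8, but 1.07 for Stat3. Summed type I interferon targets took the same order, with 2439, 4512 and 2912 FPKM in old replicates 1 to 3 and 885.4 to 1295 FPKM in young samples. Summed interferon gamma targets did likewise, with 159.4, 415.3 and 231.7 FPKM in old and 67.5 to 101.7 FPKM in young samples. The sum over all 18 macrophage markers did not take this order, at 923.1, 915.8 and 855.1 FPKM in old replicates 1 to 3. This depended on Lyz2, the most abundant marker. Without Lyz2 the sum was highest in old replicate 2. Old replicates 1 and 3 were then nearly level, with replicate 1 only slightly lower.

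**Figure D3:**
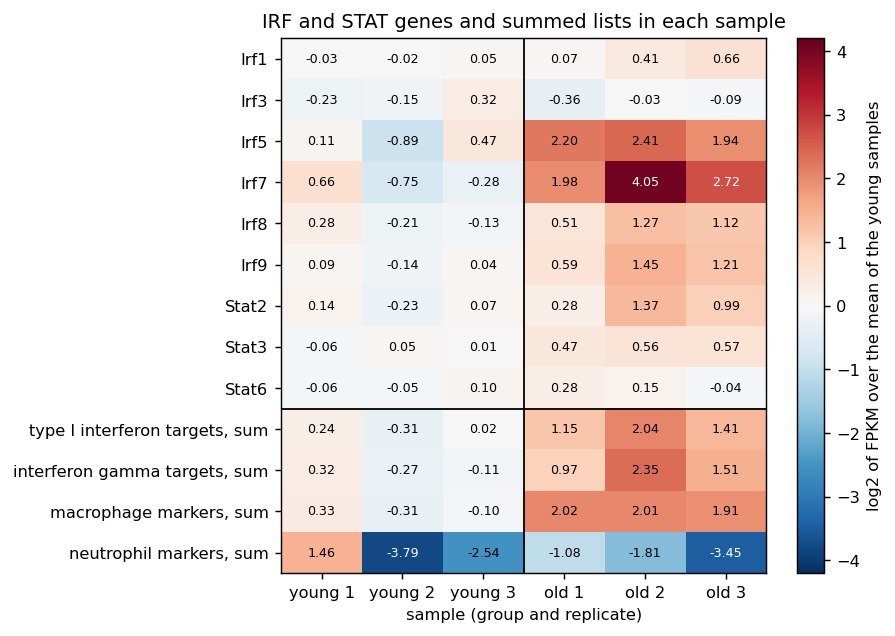
Log2 of FPKM relative to the mean of the young samples (colour and number in each cell) for the 9 IRF and STAT genes and for 4 summed lists of genes, with samples as columns and a line between young and old. Old replicate 2 has the highest value for Irf7 (4.05) and for both lists of interferon targets (2.04 and 2.35). The macrophage sum, in which Lyz2 is the most abundant marker, is nearly level across old samples (1.91 to 2.02), but without Lyz2 it is also highest in old replicate 2.

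Markers of macrophages rose with age group alongside these factors. Of 18 markers, 15 were higher in old mice (limma, adjusted p below 0.05) and 0 were lower, with a median log2 difference of 1.72. Of all genes tested, 5.41% were higher and 3.68% lower, and the counts that follow stand beside these shares. Their sum was 183.2 to 285.4 FPKM in young and 855.1 to 923.1 FPKM in old samples, and every marker was detected in every sample. Without 1 sample at a time, the number higher was 12, 10 and 13 without young replicates 1, 2 and 3, and 9, 1 and 8 without old replicates 1, 2 and 3. T and NK cell markers (6 genes) summed to 0.423 to 1.51 FPKM in young and 5.26 to 5.45 FPKM in old samples, with 1 of 6 past the threshold and Cd3d and Gzmb at 0 in the young samples. Dendritic cell markers (7 genes) summed to 9.23 to 13.2 and 12.5 to 13.7 FPKM, and B cell markers (5 genes) to 0.404 to 3.46 and 0.456 to 0.553 FPKM, with overlap in both. The part of these cells in the levels of Irf5, Irf7, Irf8 and the other factors was not tested.

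Of 5 other genes of both families, 1 was higher and 0 were lower, with a median log2 difference of 0.25. Stat4, which acts in T and NK cells, rose from 0.0319 ± 0.00169 to 0.416 ± 0.0857 FPKM (SD, n = 3 each; limma, adjusted p = 0.0433). It did not pass the threshold when any 1 of the 6 samples was left out (limma, adjusted p = 0.0721 to 0.149). The young mean of Stat4 was below the 0.1 FPKM used as filter and as pseudocount, so it was tested only through its old samples. Irf2 (29.1 and 32.9 FPKM in young and old mice), Irf4 (0.420 and 0.514), Stat5a (9.72 and 11.6) and Stat5b (29.15 and 33.0) did not pass. As the plot of log2 differences shows, all 5 estimates were above 0.

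Upstream of the factors, ligands, receptors and sensors were examined, to be read against the 5.41% and 3.68% of all genes that were higher and lower. Among 16 ligands only 5 had a mean of at least 0.1 FPKM, and Ifnb1, Ifng, Il4 and Il13 were among the 11 that did not. Of these 5, 3 were higher, with a median log2 difference of 0.99. Without this filter 11 ligands could be tested, of which 2 were higher, with a median of 0.57. Csf1, the growth factor of macrophages, rose from 3.17 ± 0.618 to 5.82 ± 0.978 FPKM (limma, adjusted p = 0.0436). Il6 rose from 0.0247 ± 0.0215 to 0.577 ± 0.0656 FPKM (adjusted p = 0.0249) and Lif from 0.0871 ± 0.0262 to 0.585 ± 0.161 FPKM (adjusted p = 0.0401), both ligands of the route to STAT3 and both at low levels. The young means of Il6 and Lif were below 0.1 FPKM, so both were tested only through their old samples. Their calls and the count of 5 tested ligands therefore depend on the difference itself. Of the 17 receptors and Janus kinases, 1 was higher and 1 was lower, with a median of 0.10. Ifngr1, the ligand-binding chain for interferon gamma, rose from 20.9 ± 1.21 to 26.6 ± 0.489 FPKM (limma, adjusted p = 0.0358). Lifr, the receptor chain for LIF, fell from 55.7 ± 1.39 to 40.8 ± 2.78 FPKM (limma, adjusted p = 0.0195). Il6st, which encodes gp130, was at 86.1 and 93.8 FPKM and did not pass.

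Of 20 sensors, adaptors and kinases that feed IRF3, IRF5 and IRF7, 3 were higher and 0 lower, with a median of 0.23. Ddx58, which encodes the RNA sensor RIG-I, rose from 10.6 ± 1.51 to 21.4 ± 4.36 FPKM (limma, adjusted p = 0.0212). Ifih1, which encodes the RNA sensor MDA5, rose from 7.96 ± 1.09 to 16.8 ± 4.44 FPKM (adjusted p = 0.0251). Unc93b1, which carries nucleic-acid-sensing Toll-like receptors to endosomes, rose from 7.41 ± 0.215 to 12.4 ± 0.887 FPKM (adjusted p = 0.0135). Ddx58 and Ifih1 are themselves interferon-stimulated. Among 15 negative regulators 2 were higher and 0 lower, with a median of 0.33. Socs3, a feedback inhibitor induced by STAT3, rose from 4.04 ± 0.587 to 9.30 ± 2.21 FPKM (limma, adjusted p = 0.0244). Ptpn6, the phosphatase SHP-1 of blood cells, rose from 6.77 ± 1.01 to 10.6 ± 1.49 FPKM (adjusted p = 0.0465), and Ptpn11, the phosphatase SHP-2, was at 77.0 and 68.2 FPKM and did not pass.

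Downstream, the targets of ISGF3 were the list with the most calls. Of 31 type I interferon targets in the table, 25 were higher and 0 were lower, with a median log2 difference of 1.55. Ifi27l2a rose from 336.6 ± 96.8 to 1431 ± 524.6 FPKM (limma, adjusted p = 0.0137), Ifi27 from 378.7 ± 44.5 to 608.1 ± 16.3 FPKM (adjusted p = 0.0135) and Ifitm3, an inhibitor of virus entry, from 126.4 ± 14.4 to 345.4 ± 159.7 FPKM (adjusted p = 0.0378). Isg20, Oas2, Oas3, Oasl1, Adar and Dtx3l did not pass. Of 14 targets of interferon gamma and IRF1, 9 were higher and 0 were lower, with a median of 1.69. Irgm1, an immunity-related GTPase, rose from 24.8 ± 2.84 to 70.2 ± 27.4 FPKM (adjusted p = 0.0261), Gbp3, a guanylate-binding protein, from 7.69 ± 2.03 to 42.2 ± 27.0 FPKM (adjusted p = 0.0287) and Igtp from 10.1 ± 1.375 to 24.1 ± 8.33 FPKM (adjusted p = 0.0292, all limma). The 25 type I targets became 20, 3 and 18 without young replicates 1, 2 and 3, and 19, 1 and 4 without old replicates 1, 2 and 3. The 9 interferon gamma targets became 6, 0 and 6 and then 6, 1 and 1 in the same order. In the RefSeq windows, ISRE matches were held by 11 of 24 type I targets and by 5 of 11 interferon gamma targets that had a window (45.8% and 45.5%), beside the 3.99% of all genes given above. Both lists were made of known interferon targets, so these shares reflect that choice and not the levels measured here. The other lists ranged from 0% (receptors and Janus kinases) to 40.0% (2 of 5 other family genes).

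Targets of STAT3 and STAT6 gave fewer calls. Of 14 STAT3 targets 5 were higher and 0 lower, with a median log2 difference of 0.40. Bcl2l1 and Mcl1, inhibitors of apoptosis, rose from 86.8 ± 8.82 to 120.4 ± 6.06 FPKM (limma, adjusted p = 0.0251) and from 52.1 ± 2.24 to 68.2 ± 5.27 FPKM (adjusted p = 0.0292). Junb, a subunit of the factor AP-1, rose from 15.3 ± 7.06 to 35.8 ± 6.54 FPKM (adjusted p = 0.0400). Of 9 STAT6 targets 7 were tested, and 1 was higher and 1 lower, with a median of 0.28. Ccl17 rose from 0.220 ± 0.190 to 2.48 ± 0.386 FPKM (limma, adjusted p = 0.0241), whereas Ccl24 fell from 0.935 ± 0.222 to 0.183 ± 0.0730 FPKM (adjusted p = 0.0297). Mrc1, a mannose receptor of macrophages, was at 3.91 and 5.87 FPKM and did not pass. Both chemokines are known to be made by macrophages, and they moved in opposite directions.

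Of 12 myeloid transcription factors, the group to which Irf8 is closest by role, 2 were higher and 0 lower, with a median log2 difference of -0.08. Cebpb rose from 26.1 ± 7.59 to 68.3 ± 19.9 FPKM (limma, adjusted p = 0.0267) and Nfil3 from 4.52 ± 0.727 to 10.96 ± 2.80 FPKM (adjusted p = 0.0218). Id2 was at 56.4 and 49.3 FPKM and did not pass. Over the 10 lists together, 52 genes were higher and 2 were lower. Without 1 sample at a time the 52 became 34, 5 and 39 without young replicates 1, 2 and 3, and 30, 2 and 9 without old replicates 1, 2 and 3. Of the 24 genes named from the lists that passed the threshold, 9, 3 and 15 passed without young replicates 1, 2 and 3, and 8, 0 and 6 without old replicates 1, 2 and 3.

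**Figure D4:**
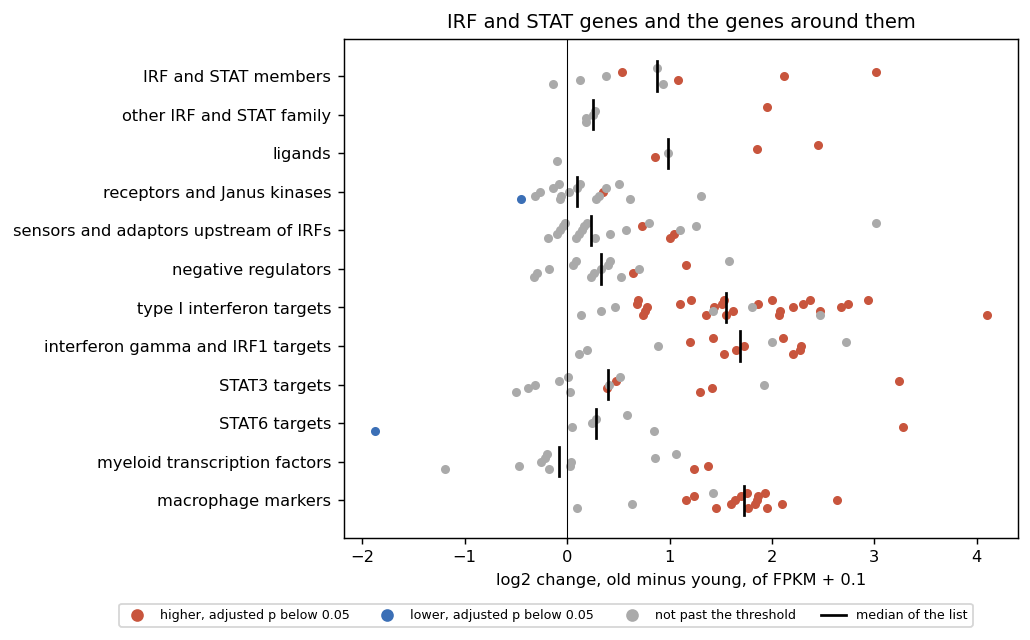
Log2 difference, old minus young, of FPKM + 0.1 for each tested gene of the 9 IRF and STAT genes, the 10 lists and the macrophage markers, with genes as points coloured by call (limma, adjusted p below 0.05) and a black bar at the median of each list. Medians are 1.55 and 1.69 for the lists of interferon targets, 1.72 for macrophage markers and 0.10 for receptors and Janus kinases.

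At the level of transcripts the 9 genes had 38 entries, all protein coding, of which 26 had a mean of at least 0.1 FPKM. Among these, 1 was higher in old mice and 0 were lower (limma over all transcripts, where 0.549% were higher and 0.199% lower). With no adjustment of p, 10 of the 26 passed 0.05 upward and 0 downward, against 9.05% and 7.98% of all transcripts. The transcript called was Irf9-202, which encodes 399 codons. It had 10.3, 7.38 and 7.75 FPKM in young and 17.8, 21.6 and 26.6 FPKM in old replicates 1 to 3. The groups were apart, with a log2 difference of 1.36 (SE 0.19, limma, adjusted p = 0.0436). It did not pass the threshold when any 1 of the 6 samples was left out. The remaining Irf9 signal came from Irf9-205, which varied from 0.000677 to 10.9 FPKM among old samples, and Irf9-203, which encodes 465 codons.

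For Irf7, the form with the longest coding sequence had a larger share in old mice. Irf7-201, which encodes 457 codons, made up 42.2 to 57.9% of Irf7 FPKM in young and 67.8 to 69.6% in old samples. Irf7-202, with 426 codons, made up 17.8 to 21.6% in young and 5.52 to 9.92% in old samples. The ranges of the shares were apart for both forms. Shares of a gene's forms are tied to each other, so these are not separate results. How often shares separate in this way over all transcripts was not computed. Irf7-203, the longest transcript at 2237 nt with 425 codons, made up 13.9 to 36.97% in young and 19.4 to 24.1% in old samples, with overlap. The level of Irf7-201 differed by 3.50 on the log2 scale and did not pass the threshold over transcripts (limma, adjusted p = 0.0594). Shares among forms that overlap along most of their length are estimates of the authors' assembly and carry an error that the table does not give.

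For Stat6, the high value of old replicate 1 came from a short form. Stat6-201, the form of 837 codons, was at 30.7, 31.9 and 35.2 FPKM in young and 30.3, 35.2 and 34.5 FPKM in old replicates 1 to 3. Stat6-202, of 113 codons, was at 3.59, 2.74 and 3.27 FPKM in young and 13.1, 4.39 and 0.350 FPKM in old replicates 1 to 3. The long form overlapped between the groups, and the short form ranged from the highest to the lowest value among the old samples. Irf3 was split between Irf3-201 (37.8% of FPKM in young and 31.2% in old mice on average) and Irf3-213 (37.5% and 48.5%), with overlap between the groups. Irf5, Irf8 and Stat2 had nearly all their signal in a single form.

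**Figure D5:**
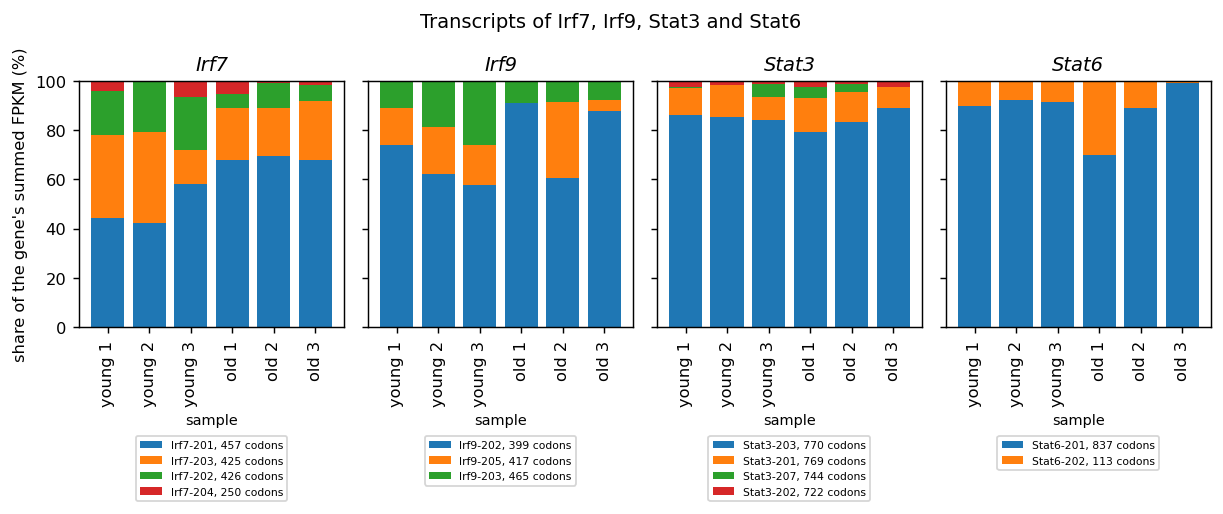
Share of each transcript in the summed FPKM of Irf7, Irf9, Stat3 and Stat6 (percent, stacked bars that start at 0), for young and old replicates 1 to 3. Irf7-201 has 42.2 to 57.9% in young and 67.8 to 69.6% in old samples, and Stat3-203 is the main form of Stat3 in all 6 samples.

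Stat3 kept its mix of forms, and the sequences that separate them are shown because STAT3 exists as a full-length alpha form and a beta form that lacks the C-terminal activation domain. Each line is coding sequence of GRCm38, 5′ to 3′ on the minus strand of chromosome 11, and capitals mark bases from the point where the forms part. The first pair differs by 3 bases at codon 701, where exon 21 of 24 ends.
Stat3-203 (770 codons): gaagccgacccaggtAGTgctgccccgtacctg
Stat3-201 (769 codons): gaagccgacccaggtgctgccccgtacctg
The second pair parts at codon 716, where the beta form uses a later start of exon 23, reads a different frame and ends after 722 codons.
Stat3-203 (770 codons): atctgtgtgacaccaACGACCTGCAGCAAT
Stat3-202 (722 codons, the beta form): atctgtgtgacaccaTTCATTGATGCAGTT

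Stat3-203 made up 85.2% ± 1.15 of Stat3 FPKM in young and 83.7% ± 4.89 in old mice (SD, n = 3 each). Stat3-201 made up 11.05% and 11.4%, and Stat3-202 made up 1.82% and 2.15%. The differences between the age groups in these shares were smaller than the spread between samples. In FPKM, Stat3-203 was at 25.3, 26.9 and 25.7 in young and 33.3, 37.4 and 40.2 in old replicates 1 to 3, apart between groups but not past the threshold over transcripts (limma, adjusted p = 0.0629).

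Some of these genes share bases with a neighbour. On the opposite strand, Irf5 overlaps Tnpo3 by 1045 bases, Irf1 overlaps Gm17334 by 907, Stat3 overlaps Stat5a by 72, Irf7 overlaps Phrf1 by 45 and Stat6 overlaps Nab2 by 40. Tnpo3 was at 16.4 to 21.4 FPKM over the 6 samples and Phrf1 at 12.0 to 15.3 FPKM. On the same strand Irf9 overlaps Rnf31 by 123 bases, and Rnf31 was at 5.77 to 6.81 FPKM. Gm20388 covers all of Irf8 on the same strand and was listed at no more than 0.0268 FPKM. The libraries were directional, but the strand setting used in assembly is not given in the sources used here, so the split of shared bases is uncertain.

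The genes whose pattern over the 6 samples was most like each factor were found by Pearson's r of log2(FPKM + 0.1). They were taken from 15055 genes with a mean of at least 1 FPKM, as a description only. The difference between the age groups is shared by all points. With 6 points and so many genes to choose from, a high r is reached for almost any pattern. Irf3 and Stat6, whose groups overlapped, still had nearest genes at 0.991 and 0.996. For Irf7 the nearest genes were Ms4a6b (r = 0.999), a membrane protein of lymphoid and myeloid cells, and Parp10 (r = 0.997). For Irf9 they were Parp14 (r = 0.998), an interferon-stimulated gene, and LNC_000224 (r = 0.996), a transcript assembled by the authors. Irf5 was closest to Tk2 (r = 0.999) and Acsl1 (r = 0.999), and Stat3 to Fbxo44 (r = 0.998) and Pcdhga6 (r = 0.995). Irf1 was closest to Clcn7 (r = 0.998), Irf3 to Wipi1 (r = 0.991), Irf8 to Spag7 (r = 0.998), Stat2 to Dffb (r = 0.996) and Stat6 to Fgf14 (r = 0.996).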

How the data were processed

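RNA-sequencing libraries of 3 young and 3 old samples were analysed, each a pool of 3 mice, with groups taken from the sample labels. The authors deposited FPKM values per transcript. According to the submitters' processing notes and the study's methods they used CASAVA 1.8, TopHat2 2.0.9, Cufflinks 2.1.1 and Cuffdiff 2.1.1 on GRCm38. The annotation release and the scaling between libraries are not given in the sources used here. Since the deposited values are FPKM and not read counts, no count test was run.

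Of 55679 Ensembl transcripts, 55275 were matched to GENCODE M21 and 404 were not. FPKM were summed per gene, and genes with a mean of at least 0.1 FPKM over the 6 samples were tested with limma 3.58.1 in R 4.3.3 (lmFit, eBayes with trend) on log2(FPKM + 0.1), two-sided, with age group as the only term and Benjamini-Hochberg adjustment over all genes tested. A fold is on this scale and understates changes of low genes. Errors are SD over samples. The samples are separate pools. The limma p-values set the difference between the groups against the spread between these pools, as limma shares it across genes. Depth was inferred from the spacing of small FPKM values, and was chosen to bring them closest to whole numbers of fragments. It used low values of transcripts of 1000 to 4000 nt from genes with a single transcript. At the chosen depth 92.8 to 94.6% of these came within 0.1 of a whole number. The 20% expected by chance takes no account of this choice. Exact permutation tests used scipy 1.17.1. The fit was tested on simulated data.

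All 9 factors are named. From each list the 3 genes with the largest mean FPKM among those past the threshold are named, made up to 3 by the largest mean FPKM where fewer passed, with 5 other genes of both families. Some genes are not reported here and were left out of the lists. The 2 nearest patterns per factor were computed. Further genes, such as those of a list that did not pass, were picked with their values known. The factors and lists were chosen with earlier results of these data known. Promoter windows were read from RefSeq (GRCm38.p6). Alternatives were other pseudocounts (0.01 and 1), filters (none, or a mean of at least 1 FPKM), scaling by median of ratios or quantiles, no variance trend, sample weights, a replicate block, the most abundant transcript, protein-coding transcripts only, and leaving out each sample.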

Additional observations from a re-analysis of the deposited data

How the results depend on the processing

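Of the 9 factors, 4 were higher in old mice as reported. This became 2 without the filter, 1 without the variance trend and 2 with the replicate block, and 0 to 4 when 1 sample was left out. It rose to 5 with protein-coding transcripts only and to 6 with sample weights. No factor was called lower under any alternative. Irf3 reversed its direction, to 0.25 with the most abundant transcript and to 0.030 without young replicate 3 (range without 1 sample -0.24 to 0.030), and passed the threshold in neither. Irf8 passed with sample weights (adjusted p = 0.0419) and with protein-coding transcripts only (0.0440), and Stat2 with sample weights (0.0438, all limma). Over all genes, 1063 were higher, against 616 without the filter, 271 without the trend, 410 with the block and 44 to 935 without 1 sample. The number lower was 724, against 292, 121, 265 and 15 to 821. Genes of the 10 lists that were higher numbered 52, against 28, 6, 13 and 2 to 39. Those that were lower numbered 2, against 1 without the trend, 0 with the block and 0 to 1 without 1 sample. With protein-coding transcripts only and with sample weights, 1315 and 1384 of all genes were higher and 968 and 990 lower. Of the list genes 59 and 58 were then higher, and 3 were lower in each. The single transcript called became 0 with the block and 0 without any 1 sample. The cause of these changes was not tested, beyond the fewer samples or residual degrees of freedom that some settings leave. No pairing by replicate number was seen, as deviations of same-numbered samples from their group means correlated at 0.03, -0.10 and 0.04. Not every sample correlated best with its own number. With 3 samples per group these correlations are tied to each other, so the check cannot exclude pairing. Other scaling moved the median of all genes by less than 0.1. Depth limits Irf5 most, and 3 pools per group limit every comparison.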

Other observations

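The levels of the factors of myeloid cells were also set against macrophage markers, a ratio added after the values were seen. Irf8 amounted to 0.597 to 0.661 FPKM per 100 FPKM of the 18 summed markers in young and 0.215 to 0.369 in old samples, so that all old samples were below all young ones. Without Lyz2, the most abundant marker, the ranges were 0.859 to 0.993 and 0.482 to 0.732. The exact two-sided permutation p was 0.1 for both, the smallest that 3 against 3 samples can give. The sum of the 18 markers itself rose from a mean of 226.9 FPKM in young to 898.0 FPKM in old samples. A gene that rose less than this sum has a lower mean level per marker level in old samples. The share of all genes with such a separation was not computed, and a change of Irf8 per macrophage was not tested. Irf5 amounted to 0.207 to 0.457 in young and 0.314 to 0.408 in old samples per 100 FPKM of all 18 markers, with overlap (exact permutation p = 0.5). Without Lyz2 the Irf5 ranges were 0.311 to 0.682 and 0.648 to 0.782, which overlapped as well (exact permutation p = 0.2).

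Mertk and Cx3cr1, a receptor for dying cells and the fractalkine receptor, were among the 3 macrophage markers that did not pass the threshold, at 28.4 and 30.6 FPKM and at 2.20 and 3.57 FPKM in young and old mice. Among dendritic cell markers, Itgax (0.103 and 1.49 FPKM) and Siglech (1.34 and 5.25 FPKM) were higher and Flt3 (4.97 and 2.01 FPKM) was lower in old mice (limma, adjusted p = 0.0152, 0.0246 and 0.0425). These genes were named after their values were seen.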
